A study of Mus musculus with 24 samples.

Results

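The genes described here are 43 genes of innate immune sensing in mouse brain, listed by name with earlier results of these data known: Toll-like receptors and their adaptors and kinases, inflammasome sensors with the Naip copies, inflammatory caspases and their substrates, cytosolic sensors, and subunits and inhibitors of NF-kB. They are 43 of the 53465 genes counted, and 40 of them had enough reads to be tested, among 18425 tested genes. RNA of the brain was sequenced from 6 mice of CAST/EiJ and 6 of WSB/EiJ, called CAST and WSB below, which are inbred strains derived from wild mice of different subspecies. The study looked for loci that modify stroke volume in a cross of wild-derived strains. The labels of these brains give tissue, strain, animal and sequencing lane, and no treatment, genotype beyond the strain, sex, age or brain region, so only strain was compared.

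Toll-like receptors bind microbial molecules or nucleic acids at the cell surface or in endosomes and signal through the adaptors Myd88 and Ticam1 to Irak kinases, Traf6 and NF-kB. Inflammasomes are cytosolic complexes in which a sensor such as Nlrp3, Nlrc4 with a Naip protein, or Aim2 recruits the adaptor Pycard and the protease Casp1, which matures interleukin-1 family cytokines and cleaves the pore-forming protein Gsdmd. In brain, microglia are known for expressing many of these genes, while astrocytes, neurons and vascular cells carry some of them.

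Of the 40 tested members, 7 were higher in CAST and 14 lower at an adjusted p under 0.05, and 19 were not called. These are 52.5% of the tested members, against 42.7% of all genes tested. The higher calls were 17.5% of the members and 21.5% of all genes, and the lower calls were 35% of the members and 21.2% of all genes. Differences of at least 1.5-fold were called in 14 members (35%), against 20.8% of all genes, with 5 of them higher in CAST (10.6% of all genes) and 9 lower (10.2%). In 14 members (35%) every animal of a strain was above every animal of the other, against 27.1% of all genes. CPM, the level used throughout, is the count of a gene relative to the reads of its library in the tested genes, scaled by TMM. The median log2 fold change, CAST over WSB, was 0.03 over the members and 0.0046 over all genes, and the median absolute value was 0.36 and 0.22. The calls went in both directions within the pathway: Tlr3, Tlr4, Pycard, Casp4 and Casp12 were higher in CAST, and Il18, Casp1, Mb21d1, Tlr6 and Naip5 were lower, each by at least 1.5-fold and with no overlap between the strains. With reads from brain tissue of mixed cells and no region given, fewer cells of a type and less RNA per cell cannot be told apart.

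**Figure D1:**
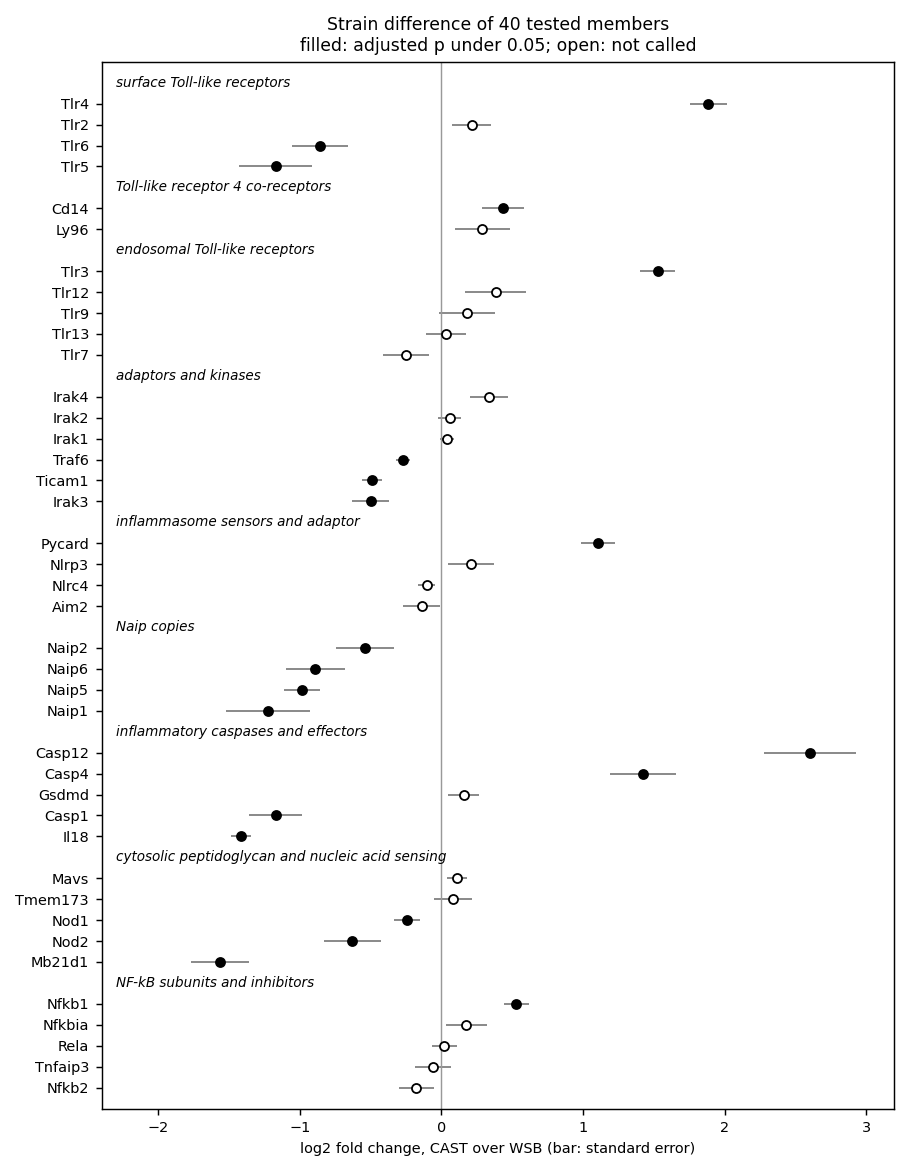
Log2 fold change (CAST over WSB, horizontal axis) with its standard error for the 40 tested members, grouped by role; filled points had an adjusted p under 0.05. All 4 Naip copies lie below 0, while the receptors and the caspases with their effectors have called genes on both sides of 0.

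The read totals in genes ran from 32982569 to 46513232 per animal, and no difference between the strains was called (exact two-sided permutation p = 0.229, adjusted 0.306 over 4 library measures). Alignments that were not unique made up 15.8% ± 0.195 (SD, n = 6) in CAST and 17.2% ± 0.177 (SD, n = 6) in WSB, with no overlap. The exact permutation p was 0.0022, the smallest that 6 against 6 allows, adjusted 0.0087. The part of this measure in the gene differences was not tested. Whether differences in sequence or gene copies between a strain and the reference genome changed the counts was not tested either. A pair of libraries stood apart. CAST_142 had a summed CPM of 1457 for 6 cerebellar markers, against 129.9 to 189.8 in the other CAST animals, and its microglial sum of 225.9 was under the 337.9 to 371.0 of the others. WSB_100 had an olfactory bulb marker sum of 249.3, against 17.7 to 47.5 in the other WSB animals. Without both animals 7 of 40 tested members were higher and 13 lower, against 7 and 14 with them. The called genes overall rose from 7866 to 8624. Neuronal markers summed to 6499 to 8383 CPM in the 12 animals, as brain should have, although the neuronal markers Tubb3 and Nefl were listed at 0.

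**Figure D2:**
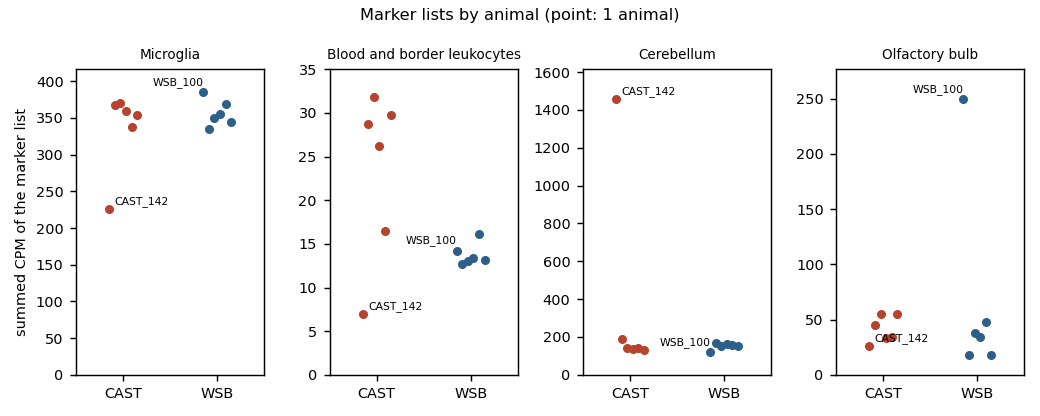
Summed CPM of 4 marker lists (vertical axes, from 0) in each CAST and WSB animal, 1 point per animal. CAST_142 stands apart in cerebellar (1457) and microglial markers (225.9), and WSB_100 in olfactory bulb markers (249.3).

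Sequences are shown for the members that lie side by side, the Naip copies and the caspases, as the 250 bases upstream of the annotated start site (RefSeq, GRCm38.p6, 5′ to 3′ on the gene's strand). The 4 Naip copies lie side by side on chromosome 13 and were all lower in CAST. Capitals mark words of 12 bases or more that a copy shares with another copy's window.
Naip1, chr13:100452865-100453114, minus strand: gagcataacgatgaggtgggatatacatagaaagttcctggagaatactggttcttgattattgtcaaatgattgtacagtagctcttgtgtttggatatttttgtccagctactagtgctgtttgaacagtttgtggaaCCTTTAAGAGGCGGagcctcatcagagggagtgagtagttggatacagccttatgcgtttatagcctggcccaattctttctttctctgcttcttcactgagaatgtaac
Naip2, chr13:100202123-100202372, minus strand: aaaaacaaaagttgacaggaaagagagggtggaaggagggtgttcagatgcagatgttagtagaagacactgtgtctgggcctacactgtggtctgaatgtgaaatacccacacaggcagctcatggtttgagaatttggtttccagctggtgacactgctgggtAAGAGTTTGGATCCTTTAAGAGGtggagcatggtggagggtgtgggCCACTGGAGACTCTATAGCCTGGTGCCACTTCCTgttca
Naip5, chr13:100247337-100247586, minus strand: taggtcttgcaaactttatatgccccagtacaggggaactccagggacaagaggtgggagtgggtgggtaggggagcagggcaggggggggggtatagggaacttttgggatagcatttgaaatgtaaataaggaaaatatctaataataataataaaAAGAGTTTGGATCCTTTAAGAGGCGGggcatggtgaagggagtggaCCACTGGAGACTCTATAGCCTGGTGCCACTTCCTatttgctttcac
Naip6, chr13:100316617-100316866, minus strand: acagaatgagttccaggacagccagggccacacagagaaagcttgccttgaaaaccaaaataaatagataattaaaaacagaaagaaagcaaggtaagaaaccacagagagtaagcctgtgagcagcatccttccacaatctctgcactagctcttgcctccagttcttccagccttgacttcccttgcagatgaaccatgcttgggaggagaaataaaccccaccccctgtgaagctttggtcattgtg

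The Naip2 and Naip5 windows share a run of 34 bases, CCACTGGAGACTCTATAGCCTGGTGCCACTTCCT, which begins 39 bases before the Naip2 start and 46 bases before the Naip5 start and occurs in no other of the 32851 windows of the reference table. Naip1 and Naip5 share 14 bases, CCTTTAAGAGGCGG, found in 6 windows in all. The Naip6 window shares no word of 12 bases with the others, so no such word is common to all 4 windows. The RefSeq start sites differ from those of GENCODE M21. The Naip6 window lies inside its M21 gene body, which ends at 100317674. The Naip5 window lies apart from its M21 gene body, which ends at 100246323. Windows at other start sites were not compared.

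Casp1, Casp4 and Casp12 are neighbours on chromosome 9; Casp1 was lower in CAST and the other two were higher. Capitals here mark matches on either strand to the kappa B frame, a loose form of the NF-kB site (3 G, any 5 bases, then 2 C), with overlapping matches merged.
Casp1, chr9:5298267-5298516, plus strand: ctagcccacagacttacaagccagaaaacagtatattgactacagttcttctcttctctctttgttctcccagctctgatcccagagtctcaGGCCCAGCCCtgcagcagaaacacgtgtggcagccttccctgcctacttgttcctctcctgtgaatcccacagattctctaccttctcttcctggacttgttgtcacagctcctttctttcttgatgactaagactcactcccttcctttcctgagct
Casp4, chr9:5308599-5308848, plus strand: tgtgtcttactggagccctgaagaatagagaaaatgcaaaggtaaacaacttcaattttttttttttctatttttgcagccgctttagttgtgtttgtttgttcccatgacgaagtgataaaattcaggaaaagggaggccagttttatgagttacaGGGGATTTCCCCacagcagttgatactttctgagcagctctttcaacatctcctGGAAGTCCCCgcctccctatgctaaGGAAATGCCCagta
Casp12, chr9:5345226-5345475, plus strand: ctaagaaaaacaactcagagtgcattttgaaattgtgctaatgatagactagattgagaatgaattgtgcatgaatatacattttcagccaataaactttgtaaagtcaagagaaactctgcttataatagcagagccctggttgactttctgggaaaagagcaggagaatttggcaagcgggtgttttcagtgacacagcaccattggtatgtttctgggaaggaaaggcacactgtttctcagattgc

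The Casp4 window holds 3 separate stretches that match the frame, the Casp1 window holds 1, and the Casp12 window holds none. The table has a window for 35 of the 43 members. The frame occurred in 21 of these 35, and in 48.7% of 27025 genes with a window. The PU.1 word GAGGAAGT, searched on both strands, occurred in Tlr1, Aim2 and Pycard, and in 2.79% of all genes. The frame of the interferon-stimulated response element (GAAA, any 2 bases, GAAA; both strands) occurred in Tlr6 alone among the members, and in 3.46% of all genes. A match is a description of letters in the reference genome and not a site in use, and the sequences of the 2 strains were not examined.

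Among the surface receptors Tlr4 was higher in CAST while Tlr6 and Tlr5 were lower, and Tlr2 was not called. Tlr4, the receptor for bacterial lipopolysaccharide (chromosome 4, 66827584 to 66930284, GRCm38), had 6.95 CPM in the lowest CAST animal, a median of 7.67 and 9.04 in the highest, against 1.80, 1.98 and 3.07 in WSB. Every CAST animal was above every WSB animal, and WSB_100 was the highest WSB animal. The difference was 3.70-fold (log2 1.89 ± 0.13 SE, edgeR adjusted p = 6.85e-08). The gene body in GENCODE M21 spans 102701 bases against 19031 in RefSeq, so reads of the longer model may be included. Tlr6, which pairs with Tlr2 to bind lipopeptides (chromosome 5, 64952031 to 64960097), ran from 0.393 CPM through a median of 0.772 to 1.11 in CAST and from 1.21 through 1.42 to 1.62 in WSB. The ranges are close but separate, and the difference was -0.86 ± 0.20 on the log2 scale (edgeR adjusted p = 0.0034). Of its transcript words of 32 bases, 16.4% also occur in other genes, Tlr1 first, and its Tlr1 neighbour was too low to test, with 30 reads over the 6 CAST animals and 25 over the 6 WSB animals. Tlr5, the flagellin receptor, had 0.257 ± 0.0920 CPM (SD, n = 6) in CAST and 0.588 ± 0.159 in WSB (log2 -1.17 ± 0.26, edgeR adjusted p = 0.0023), from 6 to 31 reads per animal, and its ranges overlapped. Tlr2 had 1.10 ± 0.201 CPM in CAST and 0.951 ± 0.110 in WSB (n = 6 each), a difference that was not called (edgeR adjusted p = 0.247).

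Both co-receptors of Tlr4 had higher means in CAST, and the difference of Cd14 was called. Cd14, which passes lipopolysaccharide to Tlr4, had 2.90 ± 0.481 CPM (SD, n = 6) in CAST and 2.15 ± 0.364 in WSB (log2 0.43 ± 0.15, edgeR adjusted p = 0.0316). CAST_142 was low at 1.97 and the ranges overlapped. The call was lost without CAST_170, CAST_200, CAST_202, CAST_203, WSB_120, WSB_135 or WSB_169 (adjusted p 0.0528 to 0.0634) and on lane 5 alone (0.0962). Ly96, which holds the lipid part of lipopolysaccharide, was not called, with 2.13 ± 0.369 CPM in CAST and 1.75 ± 0.516 in WSB.

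Of the endosomal receptors, most of which bind nucleic acids, Tlr3 differed and Tlr7, Tlr9, Tlr12 and Tlr13 were not called. Tlr3, the receptor for double-stranded RNA, which signals through Ticam1 (chromosome 8, 45395665 to 45411080), had 7.55 CPM in the lowest CAST animal, a median of 8.33 and 9.62 in the highest, against 2.28, 2.83 and 3.86 in WSB. The lowest CAST animal was above the highest WSB animal. The difference was 2.89-fold (log2 1.53 ± 0.12, edgeR adjusted p = 3.09e-07). Of its exon bases 89.1% lie outside other genes, and the rest overlap the antisense gene Gm45542. Tlr7 had 2.29 ± 0.538 CPM in CAST and 2.73 ± 0.364 in WSB, and Tlr9 2.002 ± 0.393 and 1.76 ± 0.546 (n = 6 each). Tlr12 was not called with all animals (edgeR adjusted p = 0.173) and was called without CAST_142 (0.0491). Tlr8 had 32 reads over the CAST animals and 33 over the WSB animals and was not tested.

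Per kilobase of exon, the level of Tlr3 in CAST was 1.62 CPM and that of Tlr4 1.41, ahead of Tlr9 at 0.576 and Tlr7 at 0.562. In WSB the order was Tlr7 at 0.670, Tlr3 at 0.562, Tlr9 at 0.507, Tlr6 at 0.383 and Tlr4 at 0.382 CPM per kilobase. The receptor with the highest mean level therefore differed between the strains, although no difference between receptors within a strain was tested. These levels assume that all reads come from exons.

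**Figure D3:**
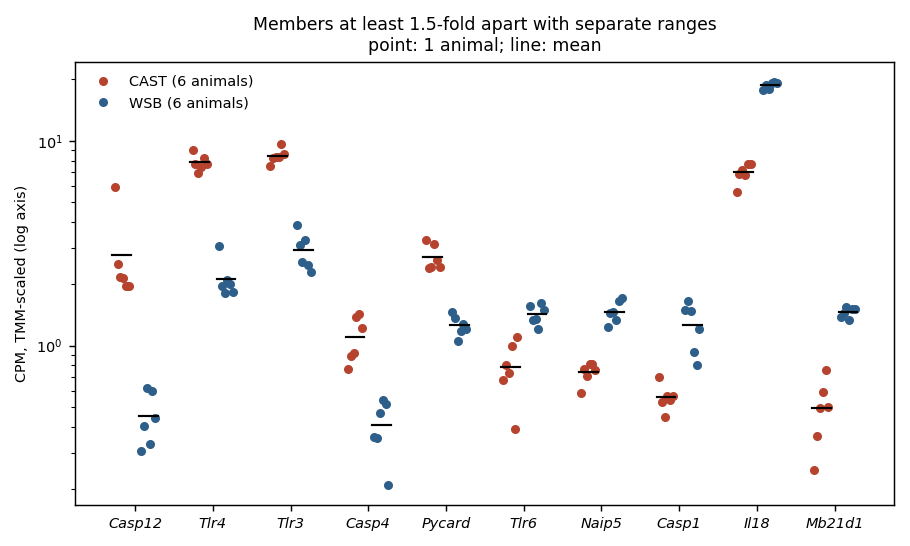
CPM on a log axis for the 10 members that were called, at least 1.5-fold apart and without overlap of the strains, 1 point per animal with the mean as a line. Tlr4 and Tlr3 sit between 6.95 and 9.62 in CAST and between 1.80 and 3.86 in WSB, and CAST_142 is the single high Casp12 point at 5.96.

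Adaptors and kinases differed little, and the 3 calls among 6 tested were all lower in CAST. Of all genes, 42.7% were called and 21.2% were called lower. Ticam1, the adaptor of Tlr3 and of endosomal Tlr4 signalling, had 7.20 ± 0.441 CPM in CAST and 10.1 ± 0.868 in WSB (log2 -0.49 ± 0.07, edgeR adjusted p = 7.73e-05), so it was lower in the strain in which Tlr3 and Tlr4 were higher. Traf6, the ubiquitin ligase downstream of the Irak kinases, had 20.3 ± 1.21 CPM in CAST and 24.5 ± 0.942 in WSB (log2 -0.27 ± 0.05, edgeR adjusted p = 4.29e-04). Irak3, a kinase-like inhibitor of the pathway, had 1.21 ± 0.176 and 1.71 ± 0.228 CPM (log2 -0.50 ± 0.13, edgeR adjusted p = 0.0066), and it was not called on lane 6 alone (0.0984). The ranges of these 3 genes did not overlap, as in 27.1% of all genes. Irak1, the member with the highest CPM, was not called, with 43.7 ± 2.103 CPM in CAST and 42.6 ± 2.55 in WSB (n = 6 each), and neither was Irak2. Irak4, the first kinase of the cascade, had 2.21 ± 0.402 and 1.76 ± 0.153 CPM and an adjusted p of 0.0599 from edgeR, and it was called without CAST_201 (0.0037), its lowest CAST animal at 1.43 CPM. Of the exon bases of Irak4, 61.6% lie outside other genes, and Twf1 overlaps it on the opposite strand. Ticam2 had 49 reads in CAST and 35 in WSB and was not tested.

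The inflammasome sensors Nlrp3, Nlrc4 and Aim2 were not called, while their shared adaptor Pycard was higher in CAST. Pycard, which joins sensors to Casp1 (chromosome 7, 127989708 to 127993867), had 2.38 CPM in the lowest CAST animal, a median of 2.52 and 3.28 in the highest, against 1.05, 1.25 and 1.46 in WSB. All CAST animals were above all WSB animals. The difference was 2.15-fold (log2 1.11 ± 0.12, edgeR adjusted p = 6.50e-06). Gm45205 overlaps it on the opposite strand and 12.6% of its 32-base words are shared, so part of its reads may be another gene's. Nlrc4, the sensor that works with Naip proteins, had 10.8 ± 0.822 CPM in CAST and 11.6 ± 0.523 in WSB, Aim2, a sensor of double-stranded DNA, 2.61 ± 0.405 and 2.88 ± 0.400, and Nlrp3 1.70 ± 0.379 and 1.47 ± 0.207 (n = 6 each).

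All 4 Naip copies, which bind flagellin or secretion system proteins and then engage Nlrc4, were lower in CAST. Naip5 (chromosome 13, 100211739 to 100246323) ran from 0.587 CPM through a median of 0.763 to 0.810 in CAST and from 1.23 through 1.45 to 1.70 in WSB, so its ranges were apart. Its difference was 1.98-fold (log2 -0.98 ± 0.12, edgeR adjusted p = 2.25e-05). Naip1 had 0.253 ± 0.148 CPM in CAST and 0.583 ± 0.122 in WSB (log2 -1.22 ± 0.30, adjusted p = 0.0045), and Naip6 0.551 ± 0.209 and 1.01 ± 0.113 (log2 -0.89 ± 0.21, adjusted p = 0.0032). Naip2 had 0.538 ± 0.0922 and 0.784 ± 0.252 CPM (log2 -0.54 ± 0.20, adjusted p = 0.0478). CAST_201 was the highest CAST animal for all 4 copies. The Naip2 call was lost under most alternatives, among them leaving out CAST_142, CAST_170, CAST_200, CAST_202, CAST_203, WSB_100, WSB_120, WSB_147 or WSB_169 (adjusted p 0.0567 to 0.102) and lane 6 alone (0.271). Summed over the copies, CPM ran from 1.56 to 2.94 in CAST, with a median of 2.07, and from 3.26 to 4.83 in WSB, with a median of 3.82. The copies are near-identical in part: 31.8% (Naip2), 34.2% (Naip6), 43.4% (Naip1) and 52.0% (Naip5) of their 32-base words occur in other genes, so reads may be split or lost between them, and the level of a single copy is uncertain.

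Casp1, Casp4 and Casp12, which lie next to each other within chromosome 9, 5298517 to 5373032, did not move together: Casp1 was lower in CAST, and Casp4 and Casp12 were higher. Casp12, a caspase linked to endoplasmic reticulum stress (5345430 to 5373032), had 1.96 CPM in the lowest CAST animal, a median of 2.15 and 5.96 in the highest, against 0.307, 0.424 and 0.621 in WSB. The highest value was that of CAST_142, with 2.49 next, and all CAST animals were above all WSB animals. The log2 difference was 2.60 ± 0.32 (edgeR adjusted p = 1.99e-05), and 2.22 without CAST_142 (2.71e-07). Casp4, which senses cytosolic lipopolysaccharide (5308828 to 5336783), ran from 0.768 through 1.07 to 1.42 CPM in CAST and from 0.210 through 0.415 to 0.543 in WSB. Its ranges were apart, and the difference was 2.68-fold (log2 1.42 ± 0.23, edgeR adjusted p = 2.33e-04). Casp1, the protease of canonical inflammasomes (5298517 to 5307265), ran from 0.451 through 0.552 to 0.700 CPM in CAST and from 0.809 through 1.35 to 1.64 in WSB. It was lower in every CAST animal, by 2.25-fold (log2 -1.17 ± 0.19, edgeR adjusted p = 2.03e-04), from 19 to 69 reads per animal.

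Il18, a cytokine matured by Casp1, had the smallest p of the members and was lower in CAST, as Casp1 was. Il18 (chromosome 9, 50554827 to 50581840) had 5.65 CPM in the lowest CAST animal, a median of 7.03 and 7.73 in the highest, against 17.7, 18.9 and 19.4 in WSB. The strains were far apart, and the WSB animals were closer together in proportion than the CAST animals. The difference was 2.67-fold (log2 -1.42 ± 0.07, edgeR adjusted p = 3.59e-09). Of its exon bases 85.4% lie outside other genes, and Bco2 and Tex12 overlap it on the opposite strand. Gsdmd, the pore-forming substrate of Casp1 and Casp4, was not called, with 2.19 ± 0.278 CPM in CAST and 1.96 ± 0.190 in WSB (n = 6 each).

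Among the cytosolic sensors Mb21d1, Nod2 and Nod1 were lower in CAST, and the adaptors Tmem173 and Mavs were not called. Mb21d1, the enzyme cGAS that senses double-stranded DNA and signals through Tmem173 (chromosome 9, 78430526 to 78443237, Cgas in GENCODE M21), ran from 0.249 through a median of 0.499 to 0.761 CPM in CAST and from 1.33 through 1.48 to 1.54 in WSB. The WSB animals were close together and all above the CAST animals. The difference was 2.95-fold (log2 -1.56 ± 0.20, edgeR adjusted p = 3.19e-05). Nod2, a sensor of muramyl dipeptide, had 1.39 ± 0.386 CPM in CAST and 2.16 ± 0.546 in WSB (log2 -0.63 ± 0.20, edgeR adjusted p = 0.0230); the call was lost without CAST_170, WSB_138 or WSB_147 (0.0519 to 0.0535) and on lane 5 alone (0.208). Nod1, a sensor of another peptidoglycan fragment, had 8.24 ± 0.507 and 9.76 ± 1.40 CPM (log2 -0.24 ± 0.09, edgeR adjusted p = 0.0467), and it was not called without CAST_170, CAST_200, CAST_201, CAST_202, CAST_203, WSB_120, WSB_135, WSB_138 or WSB_147 (0.0548 to 0.100), on lane 6 alone (0.143), with limma-voom (0.0612) or with no filter (0.0558). Tmem173, the adaptor STING, had 2.38 ± 0.405 and 2.25 ± 0.268 CPM, and Mavs, the adaptor of RNA helicases, 8.72 ± 0.780 and 8.08 ± 0.486.

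Of the NF-kB genes, Nfkb1 was higher in CAST and the other 4 were not called. Nfkb1, which encodes the p105 precursor and its p50 product, had 41.0 ± 6.11 CPM (SD, n = 6) in CAST and 28.4 ± 2.34 in WSB (log2 0.53 ± 0.09, edgeR adjusted p = 2.93e-04). Its ranges did not overlap, and CAST_142 was the highest animal at 53.0, with 40.6 next. Rela, its transactivating partner, had 23.5 ± 3.30 CPM in CAST and 23.2 ± 2.12 in WSB, with CAST_142 again the highest at 30.1. Nfkbia, the inhibitor that NF-kB itself induces, had 22.8 ± 4.10 and 20.2 ± 4.22 CPM. Nfkb2 and the deubiquitinase Tnfaip3 were not called either.

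The 19 members that were not called had log2 fold changes from -0.25 to 0.38 and edgeR adjusted p from 0.0599 to 0.874. The spread over the animals of a strain is given beside counting error as a description, since separate animals vary beyond counting. Nfkbia had a coefficient of variation of 17.9% in CAST and 20.9% in WSB, where counting alone gives 3.19% and 3.51%. In CAST the spread of several members rested on CAST_142. Casp12 varied by 56.6%, and by 10.1% without it. Tnfaip3, where CAST_142 was low at 4.02 CPM, varied by 19.9% and 11.1%, Nfkb1 by 14.9% and 4.39%, and Rela by 14.1% and 3.29%. Il18 varied by 10.98% in CAST, against 5.78% from counting, and by 3.74% in WSB, against 3.66%.

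**Figure D4:**
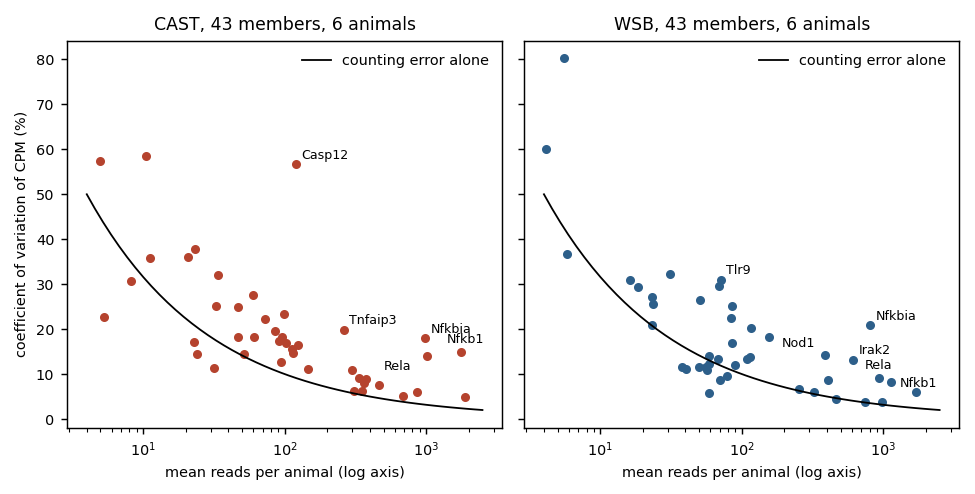
Coefficient of variation of CPM over 6 animals (vertical axis, percent) against the mean reads per animal (log axis) for the 43 members in CAST and in WSB, with the value that counting error alone gives as a line. Labelled members exceed 2.5 times that value; Casp12 in CAST (56.6%) and Nfkbia in both strains (17.9% and 20.9%) stand above the line, and Casp12 falls to 10.1% without CAST_142.

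Markers of some cell types were also called between the strains, where 42.7% of all genes tested were called. The called share of the tested markers was 56.25% for microglia and 66.7% for endothelium. For mural cells and for astrocytes it was 44.4%, for blood and border leukocytes 40%, and for cerebellum 50% of 4 tested. It was 20% for choroid plexus and meninges and for olfactory bulb, 12.5% for oligodendrocytes, and 0% for neurons and striatum. Of the 20 microglial markers, 16 were tested, 3 were higher in CAST and 6 lower, and P2ry12, P2ry13, Itgam and Gpr34 were listed at 0. Their summed CPM was 225.9 to 371.0 in CAST (337.9 to 371.0 without CAST_142) and 335.0 to 384.8 in WSB, so the sums overlapped. Single markers went both ways: Fcrls, 19.3 ± 4.22 CPM in CAST and 1.22 ± 0.276 in WSB, and C1qc, 12.1 ± 1.80 and 7.69 ± 0.630, were higher in CAST, and Aif1, 3.99 ± 0.617 and 7.49 ± 0.724, was lower (n = 6 each). Mural cell markers summed to 145.7 to 172.6 CPM in CAST and 227.8 to 254.7 in WSB, with no overlap, and 4 of 9 tested were lower, led by Rgs5 and Vtn; the other 5 were not called and the median log2 fold change of the 9 was -0.07. Of 19 markers of blood and border leukocytes, 5 were tested and 2, S100a9 and Mrc1, were higher in CAST; Ms4a1 was listed at 0. Their sums were 16.4 to 31.8 CPM in CAST without CAST_142, which had 6.96, and 12.7 to 16.1 in WSB. Astrocyte sums were 4833 to 5839 in CAST and 4502 to 5316 in WSB, with Gfap listed at 0. Of 9 tested astrocyte markers, 3 were higher in CAST and 1 lower. Endothelial sums were 306.3 to 349.0 and 318.8 to 358.2, with 3 of 12 tested markers higher in CAST and 5 lower. Oligodendrocyte markers summed to 2970 to 3902 in CAST and 2162 to 5149 in WSB, choroid plexus and meningeal markers to 183.9 to 566.5 and 107.8 to 771.6, and striatal markers to 335.5 to 1758 and 1003 to 1653; without CAST_142 the lowest CAST sums were 325.9 for choroid plexus and meninges and 834.9 for striatum, and without WSB_100 the lowest WSB sum for choroid plexus and meninges was 278.8. The part of these cell types in the differences of the members was not tested.

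Other genes of the pathways were taken from 5 lists. Of 109 genes, 108 are in the files and 78 were tested; 22 were higher in CAST and 18 lower, which is 51.3% of those tested, against 42.7% of all genes. Their median log2 fold change was 0.07, against 0.0046 over all genes.

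Partners of Myd88 and Ticam1 gave 4 higher and 4 lower among 21 tested (38.1%, median log2 0.05). Lbp, which delivers lipopolysaccharide to Cd14, was lower in CAST, at 1.02 ± 0.181 CPM against 3.58 ± 0.732 (log2 -1.81, edgeR adjusted p = 1.15e-06), while Tlr4 and Cd14 were higher. Ripk1, a kinase that binds Ticam1, was higher at 11.3 ± 1.08 against 7.55 ± 0.752 CPM, and Ikbke, a kinase of interferon regulatory factors, at 3.79 ± 0.536 against 2.73 ± 0.212. Peli1, a ubiquitin ligase, was lower, at 48.2 ± 3.34 against 57.5 ± 2.13 CPM. Myd88 itself and the chaperone Cnpy3 were listed at 0 in every animal, so nothing can be said of their expression.

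Kinases, further subunits and inhibitors of NF-kB gave 3 higher and 5 lower among 18 tested (44.4%, median log2 0.0086). The related proteins Tnip1 and Tnip2, which bind Tnfaip3 and restrain NF-kB, went in opposite directions: Tnip1 had 46.5 ± 1.96 CPM in CAST and 28.2 ± 1.34 in WSB (log2 0.72, edgeR adjusted p = 1.69e-08), and Tnip2 12.2 ± 1.30 and 22.98 ± 1.43 (log2 -0.91, adjusted p = 2.75e-07). Ikbkg, the regulatory subunit of the kinase complex, was higher in CAST at 62.2 ± 1.88 against 47.6 ± 1.47 CPM. Birc3, a ubiquitin ligase, was lower at 1.82 ± 0.195 against 3.32 ± 0.390.

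Inflammasome partners and the interleukin-1 family gave 6 higher and 4 lower among 17 tested (58.8%, median log2 0.04), with the largest differences of the 5 lists. The sensor Nlrp1a had 2.55 ± 0.344 CPM in CAST and 0.0421 ± 0.0209 in WSB, from 659 and 10 reads over 6 animals, and its neighbour Nlrp1b had 1.58 ± 0.218 and 0.0488 ± 0.0410, from 407 and 12 reads. Together they ran from 3.37 to 4.71 CPM in CAST and from 0.0253 to 0.163 in WSB (log2 5.84, edgeR adjusted p = 1.47e-10 for Nlrp1a, and 4.90, 4.74e-08 for Nlrp1b). These sensors act upstream of Casp1, which was lower in CAST. Serpinb1a, a protease inhibitor, was lower in CAST at 0.734 ± 0.0862 against 3.77 ± 1.27 CPM (log2 -2.35, adjusted p = 1.02e-06 from edgeR). Gsdme, a pore-forming relative of Gsdmd, was higher at 42.9 ± 2.04 against 29.4 ± 2.33 CPM. Txnip was listed at 0.

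Partners in cytosolic sensing gave 5 higher and 5 lower among 15 tested (66.7%, median log2 -0.06). Nlrc3, an inhibitor of STING and Toll-like receptor signalling, was higher in CAST at 24.6 ± 3.11 against 5.23 ± 0.816 CPM (log2 2.23, edgeR adjusted p = 2.26e-09). Mndal, of the family of Aim2, was higher at 1.33 ± 0.570 against 0.169 ± 0.0554, and 28.1% of its 32-base words are shared with other genes. The ubiquitin ligases of RNA sensing, Trim25 (5.56 ± 0.355 against 10.6 ± 0.911 CPM) and Rnf135 (6.31 ± 0.627 against 9.78 ± 0.389), were both lower in CAST. Trex1 was listed at 0.

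Of 19 genes that NF-kB is known to induce, 8 were tested; 4 were higher in CAST and 4 were not called (50%, median log2 0.39). Ptgs2 had 18.7 ± 4.40 CPM in CAST and 6.68 ± 2.53 in WSB (log2 1.48, edgeR adjusted p = 1.35e-04), Ccl5 0.493 ± 0.0942 and 0.196 ± 0.0605, Nos2 0.554 ± 0.164 and 0.297 ± 0.101, and Sod2 185.2 ± 6.05 and 160.5 ± 7.14. Ccl2, Cxcl2 and Cxcl10 were listed at 0, and most cytokine genes of the list had too few reads to test.

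**Figure D5:**
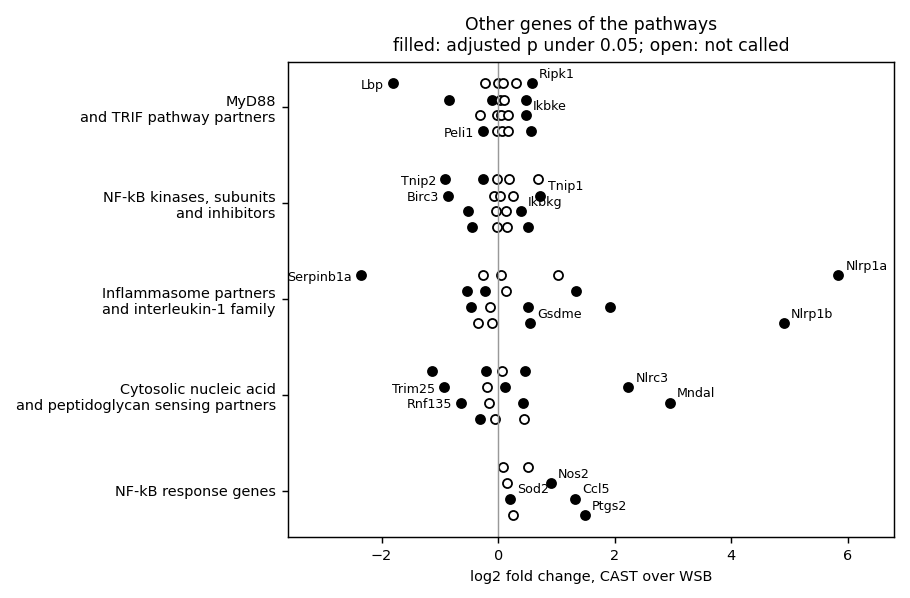
Log2 fold change (CAST over WSB) of the tested genes of 5 pathway lists, 1 point per gene; filled points had an adjusted p under 0.05, and named points are the 4 called genes with the smallest p of each list. Nlrp1a (5.84) and Nlrp1b (4.90) lie farthest to the right and Serpinb1a (-2.35) farthest to the left.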

How the data were processed

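RNA-seq of brain from 12 mice was deposited as raw counts per gene, whole numbers with no scaling, with 2 lane files per animal (24 files). Per the submitters' processing notes, cutadapt, TopHat2 2.1.1, HTSeq and DESeq2 were used; the sources used here do not state build, annotation or strand setting. Each file lists 53465 genes and 5 HTSeq counters, which were left out of library sizes; 11.1% to 16.5% of alignments were ambiguous between genes. Overlapping genes, antisense ones included, may share or lose reads, and many genes inside other genes are listed at 0.

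Lanes 5 and 6 were summed per animal (chi-square over its degrees of freedom between lanes 1.09 to 1.40). Symbols and coordinates are from GENCODE M21 (GRCm38), which has 53274 of the identifiers on its chromosomes; Mb21d1 was matched through a RefSeq synonym. The strain comparison used edgeR 4.0.16 under R 4.3.3 (quasi-likelihood, robust, TMM, filterByExpr, Benjamini-Hochberg over all tested genes), tested on simulated data. The labels number the animals separately, and the p-values set the strain difference against the spread between animals. The members and lists were chosen with earlier results of these data known. Full values were given for members that were called, at least 1.5-fold apart and without overlap; means and SD for other called members; at most 4 called genes with the smallest p per pathway list, and at most 3 per marker list. Uncalled members named with values, and their order per kilobase, are descriptions. Alternatives used DESeq2 1.42.0, limma 3.58.1 (voom), other scaling, filters, lanes and animals. Shared sequence is the share of a gene's transcript words of 32 bases found in another gene.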

Additional observations from a re-analysis of the deposited data

Results flagged for a closer look

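For independent groups, chance alone flags about 1 group in 20. The groups searched share the same 12 animals, so their count cannot be set against that rate. An animal stood far from the other 5 of its strain in 15 of 110 groups searched (gap over range above 0.625). Among the members these were 9 of 80 groups, 4 of them in CAST_142: Casp12 at 5.96 CPM (2.49 next), Nfkb1 at 53.0, Rela at 30.1 and Cd14 at 1.97. CAST_201 was far from its strain for Irak4, low at 1.43 CPM, and for 2 Naip copies, high at 0.540 for Naip1 and 0.945 for Naip6. WSB_100 was high for Tlr4 at 3.07 CPM, and WSB_147 was high for Naip2 at 1.28.

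Among the marker sums, CAST_142 had 225.9 CPM for microglia and 1457 for cerebellum, and CAST_170 had 172.6 for mural cells. WSB_100 had 227.8 for mural cells, 120.9 for cerebellum and 249.3 for olfactory bulb. The share of cerebellum or olfactory bulb in a library and the levels of the members were not tested against each other.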

How the results depend on the processing

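Of the 21 called members, 16 were called in the same direction under every one of the 22 alternatives that tested them, 13 of these at least 1.5-fold apart. The exceptions were Naip2, Nod1, Cd14, Nod2 and Irak3. Other scalings moved the median of all genes by -0.0012 (size factors RLE) and 0.0012 (upper quartile). With at least 1 CPM in 6 animals, 32 members were tested, 9 were lower in CAST and 9 were called at least 1.5-fold apart; this filter leaves out low genes. Lane 6 alone gave 9 lower among 38 tested, with fewer reads. The main fit gave 14 lower among 40. The called genes overall were 6421 with this filter and 6567 on lane 6 alone, against 7866 in the main fit. The share of all genes called lower in these 2 settings was not worked out. A further count, chosen after seeing the data, took members with at most 10% shared 32-base words and at least 90% of exon bases outside other genes. Of its 29 tested members, 5 were higher and 8 lower, 7 at least 1.5-fold apart and 9 without overlap of the strains. With all 40 tested members these were 7, 14, 14 and 14. Over all genes tested, 21.5% were higher, 21.2% lower, 20.8% at least 1.5-fold apart and 27.1% without overlap.

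Leaving out each animal in turn gave 7313 to 8726 called genes, 6 to 8 members higher, 11 to 13 lower, 13 to 15 at least 1.5-fold apart, 14 to 17 without overlap and 40 to 43 pathway partners. Without both CAST_142 and WSB_100 these were 8624, 7, 13, 14, 15 and 45. Some members that were not called with all animals and both lanes changed sign in a few settings, and the cause was not tested. On lane 5 alone the log2 fold change was -0.10 for Tlr13, 0.063 for Aim2, -0.059 for Tmem173 and 0.028 for Tnfaip3, and on lane 6 alone it was -0.13 for Tlr2, which lane 5 alone called at 0.56 (edgeR adjusted p = 0.0434). Without both animals it was -0.066 for Rela and 0.0070 for Tnfaip3. With 1 animal left out it ran from -0.067 (without CAST_142) to 0.053 for Rela, where it was also below 0 without WSB_138 (-0.027), from -0.11 to 0.032 (without CAST_142) for Tnfaip3, and from -0.024 (without CAST_202) to 0.12 for Tlr13, also below 0 without WSB_138 (-0.0088). DESeq2 called Irak4 (adjusted p = 0.0431). No paired analysis was possible because the strains share no animal numbers. Depth limits the 7 members with a mean under 1 CPM in both strains. The coefficients of variation without CAST_142 were added after seeing the data.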

Other observations

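Further genes of the pathway lists, chosen here after their values were seen, differed as well. Il33, an alarmin of the interleukin-1 family, had 78.7 ± 20.99 CPM (SD, n = 6) in CAST and 31.1 ± 7.29 in WSB, with no overlap (log2 1.34 ± 0.19, edgeR adjusted p = 5.17e-05), the opposite direction to Il18 of the same family. Il18bp, which binds and neutralises interleukin-18, was lower in CAST, as Il18 was, at 5.13 ± 1.03 against 7.09 ± 0.856 CPM (log2 -0.47 ± 0.12, edgeR adjusted p = 0.0077). Nlrp6, a further sensor, was higher in CAST at 0.644 ± 0.0765 against 0.165 ± 0.123 CPM.

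Relb, the partner of the Nfkb2 product, was higher in CAST at 7.82 ± 0.972 against 5.45 ± 0.366 CPM, as Nfkb1 was. Chuk, a catalytic kinase subunit, was lower at 60.4 ± 2.94 against 72.5 ± 3.78 CPM, while the regulatory subunit Ikbkg was higher. Irf7, a transcription factor of type I interferon genes, was lower in CAST at 0.693 ± 0.190 against 1.25 ± 0.189 CPM, and Nlrc5, an activator of class I antigen presentation genes, at 0.810 ± 0.157 against 1.78 ± 0.370 CPM.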
